A study of Homo sapiens with 90 samples.

Results

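The vehicle-treated state of A673 cells was described here from the control arrays of a concentration-response experiment. A673 is an established Ewing sarcoma cell line, in this study bought from ATCC, and it stands for 1 tumour. Of the 90 deposited columns, 9 were vehicle columns, chosen by their labels alone, and the other 81 came from cells given fenbuconazole or imazalil, 2 azole fungicides, or the herbicide 2,4-D at 9 concentrations. Each vehicle group had 3 columns, and it was normalized with the fenbuconazole, the imazalil or the 2,4-D samples. All groups shared the same conditions. Cells were kept in DMEM with 10% serum, seeded in 96-well plates at 26000 per well, left for 24 h to attach and then exposed for 24 h in 0.2% DMSO, with or without a chemical. Total RNA was read on Affymetrix HT HG-U133+ PM arrays. By the methods, each replicate was a separate experiment with its own batch of cells.

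Ewing sarcoma is a tumour of bone and soft tissue in children and young adults. Its driver is a fusion of EWSR1, a gene of the FET family of RNA-binding proteins, with a gene of the ETS family of transcription factors, most often FLI1. The fusion protein binds GGAA repeats and single ETS sites, and it activates one group of genes and represses another. The cell of origin is debated between mesenchymal and neural crest progenitors, so markers of those and of other lineages were examined here. Whether a probe set of EWSR1 or FLI1 reads the fusion or the normal transcript cannot be told apart in these values.

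The labels call the 3 vehicle samples common to all 3 chemicals and give them the same run numbers. The mean over all vehicle and treated columns normalized together was first removed per probe set. Imazalil-set and 2,4-D-set columns of the same number then correlated at 0.867 to 0.878 across probe sets. Fenbuconazole-set and imazalil-set columns of the same number correlated only at 0.105 to 0.185. The 2,4-D columns were therefore taken as copies of the imazalil columns, and 6 arrays were counted as distinct, 3 in the fenbuconazole set and 3 in the imazalil set. Whether the fenbuconazole columns come from the same RNA is not known, so the 6 arrays are described side by side and are not treated as 6 independent samples. The sets were normalized separately, and levels were compared between them by rank only.

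The 19774 genes with a probe set of their own were ranked within each array and given a percentile, in which 100 is the highest signal. A gene was represented by its probe set of highest mean percentile. The signal of a probe set depends on how well its probes bind as well as on the transcript, so a percentile orders signals and is not a measure of transcript abundance. To mark the level of a gene with no expected transcript, 121 receptors for odours and tastes served as a silent panel, and the 95th percentile of that panel in each array served as the limit. The limit lay at percentile 44.6, 45.6 and 46.5 in the fenbuconazole-set arrays, and at 43.7, 44.1 and 41.1 in the imazalil-set arrays. A total of 10189 genes (51.5%) were above the limit in 6 of 6 arrays, 7621 genes (38.5%) in none, and 1964 in 1 to 5 arrays. The panel itself had 3 of 121 genes above the limit in all 6 arrays, the bitter taste receptor TAS2R14 and the olfactory receptor pseudogenes OR7E104P and OR7E35P. A second panel of 35 genes restricted to eye, pancreas, pituitary, sperm and other specialised cells had 1 gene above, the surfactant protein gene SFTPB.

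**Figure D1:**
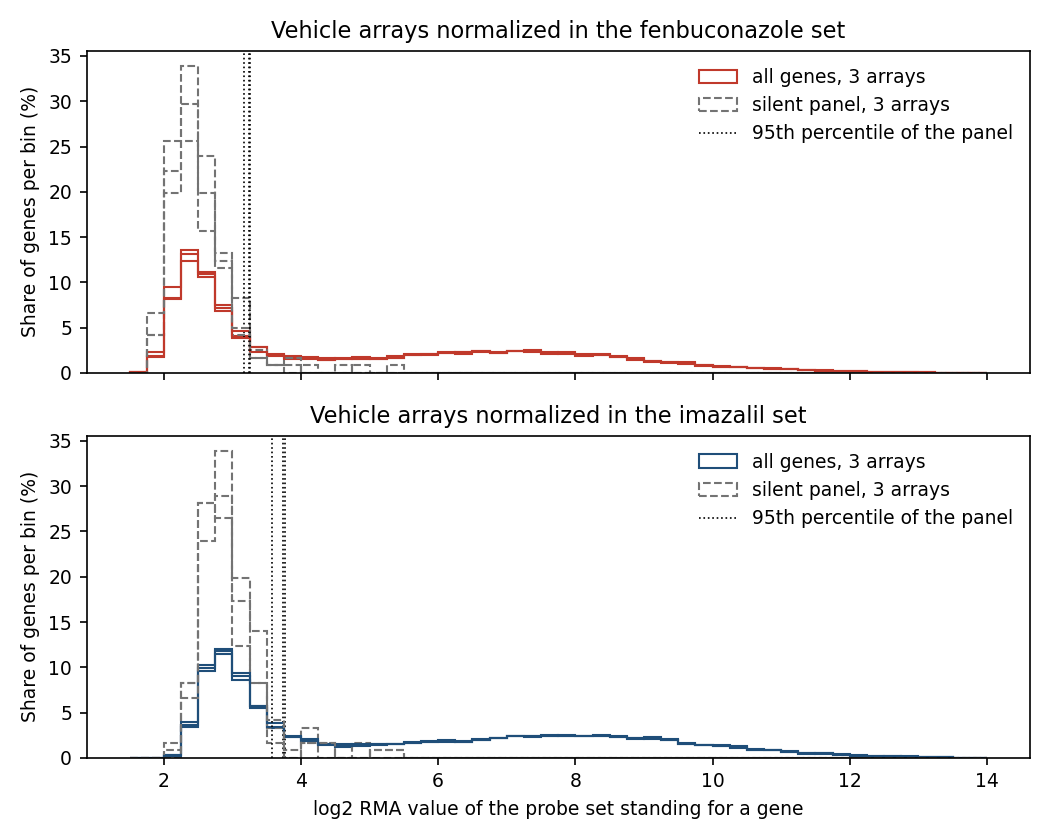
Distribution of log2 RMA values over the 19774 genes (solid) and over the 121 genes of the silent panel (dashed) in the 3 vehicle arrays of each set, as the share of genes per bin of log2 value. The dotted lines mark the 95th percentile of the panel in each array, and the panel fills the low peak of the distribution in both sets.

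Protein-coding genes and long non-coding RNAs differed in how many passed the limit. Of 19736 genes whose type was found in the RefSeq gene table, 16747 were protein-coding, and 58.6% of those were above the limit in all 6 arrays. Of 2407 long non-coding RNAs 10.3% were above, and of 409 transcribed pseudogenes 21.5%. Each gene stood by its highest probe set, so a gene with more probe sets had more chances to pass. The number of probe sets was not compared between types. Among probe sets for T and B cell receptor V segments, which need rearrangement in lymphocytes, 0 of 19 were above the limit in all 6 arrays.

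The highest signals came from the machinery of translation. EEF1A1, which carries aminoacyl-tRNA to the ribosome, ranked first in 6 of 6 arrays. RPL41, a protein of the large ribosomal subunit, ranked from 2 to 6, RPL23A from 3 to 9 and RPS2, of the small subunit, from 2 to 15. Ribosomal protein genes made up 17 of the 30 highest genes and 53 of the 100 highest. The other ribosomal proteins among the 30 highest were RPL37A, RPS3A, RPS18, RPL13A, RPS23, RPL17, RPS10, RPL7A, RPS4X, RPS15A, RPLP1, RPS16, RPL8 and RPL32. With them stood the translationally controlled protein gene TPT1 and EIF4A1, an RNA helicase of translation initiation.

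Most of the rest of the 30 highest were genes of the cytoskeleton and of basic metabolism. TUBA1B, an alpha-tubulin, ranked from 2 to 8 and TUBA1C from 6 to 13, and the beta-tubulin TUBB from 9 to 29. ACTB ranked from 15 to 28 and ACTG1, the other cytoplasmic actin, from 14 to 35. GAPDH, an enzyme of glycolysis, ranked from 9 to 25, the peptidyl-prolyl isomerase PPIA from 10 to 22, the DNA-binding protein HMGB1 from 15 to 20 and the constitutive chaperone HSPA8 from 21 to 42. Of the 30 highest genes 27 were represented by a probe set whose name ends in s_at or x_at, which can match several transcripts, against 29.1% of all genes. Close paralogs such as TUBA1B and TUBA1C, ACTB and ACTG1, and ribosomal proteins with many pseudogenes are thus not separated with certainty.

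A pair of genes near the top rested on 1 probe set. SH3KBP1, an adaptor protein of receptor endocytosis, ranked from 4 to 14, and that probe set stood at percentile 99.97 of all probe sets. Its other 3 probe sets stood at 79.0, 75.8 and 23.02. HUWE1, a ubiquitin ligase, ranked from 30 to 65 through a probe set at 99.8, while its other 4 lay between 50.03 and 88.4. The rank of these genes was therefore not shared by their other probe sets.

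The start regions of the ribosomal protein genes had a feature in common that the ranking did not use. Transcripts of ribosomal proteins and translation factors are known to begin with a C followed by a run of pyrimidines, through which their translation is controlled. In the RefSeq promoter table (GRCh38.p14, 250 bases before to 50 bases after each start), 58 of the 68 measured ribosomal protein genes matched, and 43 of their 69 promoters (62.3%) had a C at the first transcribed base followed by 4 pyrimidines. The share was 36.8% over 114 promoters of the 100 highest genes, of which 85 matched, and 4.07% over all 35093 promoters. It was 5.42% for genes above the panel limit and 3.06% for genes not above it. To show the feature, the windows of 60 bases before to 20 bases from the start are given for 4 of the highest genes, 5′ to 3′ on the strand of the gene, with the C and the 4 pyrimidines in capitals.
RPL41, chr12:56116573-56116652, plus strand: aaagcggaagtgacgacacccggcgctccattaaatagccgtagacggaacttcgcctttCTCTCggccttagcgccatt
RPS3A, chr4:151099568-151099647, plus strand: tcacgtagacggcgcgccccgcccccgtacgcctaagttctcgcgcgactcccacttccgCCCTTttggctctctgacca
RPS18, chr6:33272015-33272094, plus strand: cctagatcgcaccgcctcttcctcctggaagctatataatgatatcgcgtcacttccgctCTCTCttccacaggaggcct
EEF1A1, chr6:73521013-73521092, minus strand: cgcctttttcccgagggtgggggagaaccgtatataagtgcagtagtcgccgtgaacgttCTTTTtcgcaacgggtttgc

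Promoters of genes above and not above the limit also differed in CpG content. The median ratio of observed to expected CpG was 0.828 over 12430 promoters of genes above the limit, 0.412 over 7095 promoters of genes not above it and 0.121 over 83 promoters of the silent panel, with 0.579 over all promoters. The sequence TATAAA, within 40 to 20 bases before the start, was present in 1.46% of promoters of genes above the limit, in 4.48% of those not above it and in 2.25% of all. These shares are descriptions of sequence and were not tested.

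The lists of translation, glycolysis, proliferation and chromatin genes were above the limit almost without exception, where 51.5% of all genes were. Of the ribosomal protein list 67 of 68 measured genes were above the limit and 66 stood above the 95th percentile. The exceptions at that mark were RPL31 (93.7) and RPL23 (49.8), and RPL23 was represented by its only probe set. Translation factors were above in 23 of 23, glycolytic genes in 18 of 18, proliferation genes in 28 of 28 and chromatin regulators in 22 of 22, with list medians of 99.2, 95.9, 93.8 and 91.7, beside a median of 49.8 over all genes. The order of these lists rests on the choice of probe sets. Without those ending in s_at or x_at the medians were 75.3 for translation factors and 80.2 for glycolysis, under the 94.1 of proliferation and the 88.8 of chromatin regulators.

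Within the proliferation list the highest mean percentiles were those of RRM2 (99.1) and TYMS (99.1) for ribonucleotide reductase and thymidylate synthase, and CDK1 (98.6), PCNA (98.2) and CCNB1 (96.96) for the mitotic kinase, the replication clamp and a mitotic cyclin. Those over the 95th percentile also included RRM1 (96.7), MCM6 (96.0), CCNB2 (95.7), MCM2 (95.4) and CDK4 (95.4). The lowest of the list were the E cyclins of G1 and the factor E2F1, with CCNE2 (69.8), E2F1 (57.8) and CCNE1 (55.6). In the chromatin list, UHRF1, which guides maintenance methylation of DNA, reached 97.4, the deacetylases were HDAC2 (96.5) and HDAC1 (96.3), and the cohesin subunit STAG2 was at 95.04. In the glycolysis list LDHB (99.7), LDHA (99.6), ENO1 (99.6) and ALDOA (99.3) followed GAPDH, and the other members over the 95th percentile were PGAM1 (99.3), TPI1 (99.2), PGK1 (99.1), PFKP (96.04) and GPI (95.7).

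**Figure D2:**
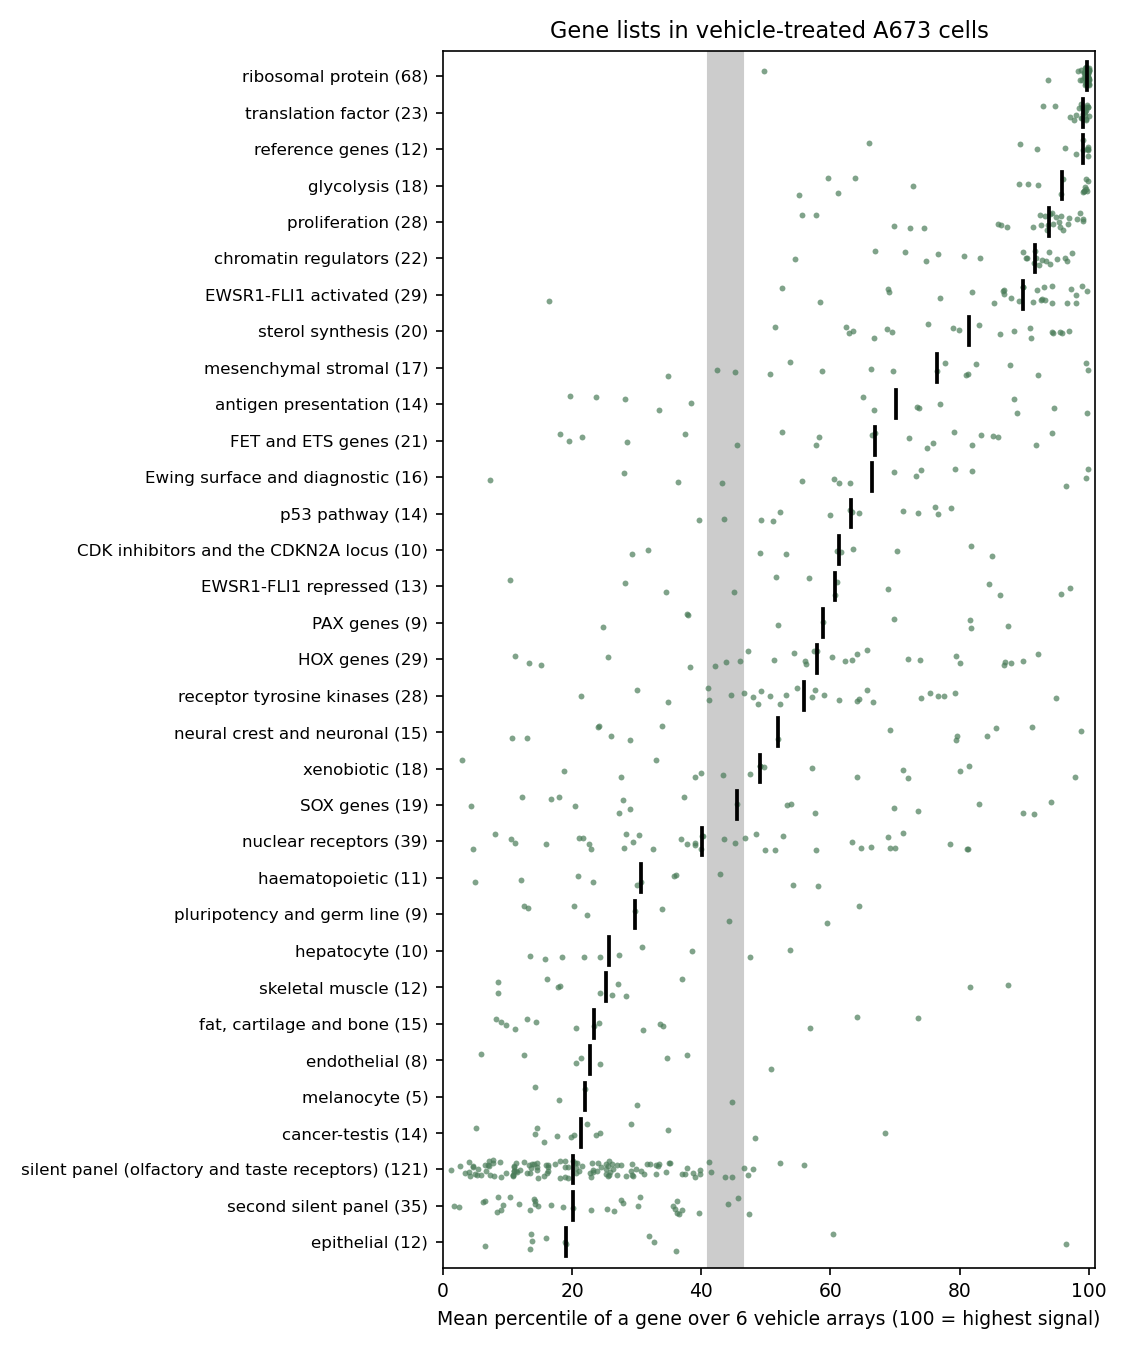
Mean percentile over the 6 vehicle arrays of each measured gene of a list (points, with the number of genes in brackets) and the median of the list (black bar), with lists ordered by median. The grey band spans the limits of the silent panel over the 6 arrays, and the lists run from ribosomal proteins, at a median of 99.7, to epithelial genes, at 19.0.

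The partner genes of the Ewing fusion were both above the limit. EWSR1 stood at percentile 91.04, 90.3 and 91.5 in the fenbuconazole-set arrays, and 92.1, 93.3 and 92.8 in the imazalil-set arrays. FLI1 stood at 83.9, 81.5 and 78.4 in the fenbuconazole-set arrays, and 82.8, 83.3 and 81.9 in the imazalil-set arrays. ERG, the partner in a minority of Ewing tumours, stood at 19.9, 22.3 and 35.7 in the fenbuconazole-set arrays, and 17.3, 11.7 and 22.7 in the imazalil-set arrays, and was below the limit in all 6. In log2 units EWSR1 was 8.88 ± 0.14 in the fenbuconazole set and 10.00 ± 0.08 in the imazalil set (SD, n = 3 arrays each), and FLI1 was 7.65 ± 0.30 in the fenbuconazole set and 8.66 ± 0.07 in the imazalil set (SD, n = 3 arrays each). The sets were normalized separately, so these log2 levels are not comparable between them.

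Probe sets of 1 gene gave different levels. The 4 probe sets of EWSR1 stood at 95.6, 92.95, 61.5 and 48.9 among all probe sets, and those of FLI1 at 90.02 and 88.5, with the other 3 between 18.01 and 32.4. The 4 probe sets of ERG lay between 6.60 and 32.5. In the FET and ETS list 15 of 21 genes (71.4%) were above the limit, beside 51.5% of all genes. The 4 highest were ELK3 (94.3), EWSR1 (91.8), ETV5 (85.9) and ETV1 (85.2), and those in no array above it were EHF, ERG, SPI1 and SPIB, which are known from epithelial, endothelial or blood cells.

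The list of genes known to be activated by EWSR1-FLI1 held 31 genes, of which 2 were not analysed here. Of the 29 measured genes 28 were above the limit in all 6 arrays, and the median percentile of the 29 was 89.9. These counts stand beside 51.5% above and a median of 49.8 over all genes. Like the other lists, this one was chosen with earlier results of these data known, so the counts are a description only. CAV1, the coat protein of caveolae, stood at percentile 99.7, 99.6 and 99.7 in the fenbuconazole-set arrays, and 99.7, 99.7 and 99.7 in the imazalil-set arrays. STEAP1, a surface metalloreductase, stood at 98.97, 99.004 and 98.9 in the fenbuconazole-set arrays, and 99.1, 98.9 and 98.9 in the imazalil-set arrays. CCND1, the cyclin of G1 progression, stood at 97.96, 97.5 and 98.4 in the fenbuconazole-set arrays, and 98.03, 98.03 and 98.2 in the imazalil-set arrays. The spread among the 6 arrays was below 1 percentile point for each of the 3 genes. Also above the 95th percentile were ADGRG2 (97.9), ID2 (97.2) and KDSR (96.7), an adhesion receptor, an inhibitor of helix-loop-helix factors and an enzyme of sphingolipid synthesis.

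NKX2-2, a homeodomain factor used in the diagnosis of Ewing sarcoma, stood at percentile 87.6, 88.2 and 88.96 in the fenbuconazole-set arrays, and 87.7, 87.4 and 87.9 in the imazalil-set arrays. PRKCB, protein kinase C beta, stood at 93.3, 92.7 and 92.97 in the fenbuconazole-set arrays, and 93.3, 92.8 and 93.2 in the imazalil-set arrays. The mean percentiles of other members were STEAP2 (94.3), IL1RAP (93.1), VRK1 (92.6), BCL11B (91.9), FCGRT (91.4), SOX2 (89.9), EZH2 (89.8) and PPP1R1A (89.2). The neuropeptide Y gene NPY and its receptor NPY1R had 86.7 and 86.8, and the lipase LIPI had 81.9. GLI1, the effector of hedgehog signalling, was the lowest member above the limit at 52.5. LOXHD1 was the only member not above it, at 11.1, 7.22 and 4.57 in the fenbuconazole-set arrays, and 17.8, 32.03 and 25.6 in the imazalil-set arrays.

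The list of genes repressed by EWSR1-FLI1 was mixed. Of 13 measured genes, 9 (69.2%) were above the limit, and the median was 60.7, beside 51.5% and 49.8 over all genes. TGFBI, a secreted matrix protein induced by TGF-beta, stood at 97.4, 97.8 and 96.9 in the fenbuconazole-set arrays, and 96.5, 97.3 and 96.2 in the imazalil-set arrays. TNC, the matrix protein tenascin C, stood at 96.03, 95.9 and 96.4 in the fenbuconazole-set arrays, and 95.3, 95.3 and 95.6 in the imazalil-set arrays. LOX, the enzyme that crosslinks collagen, was intermediate, at 66.7, 72.9 and 68.9 in the fenbuconazole-set arrays, and 68.2, 71.0 and 65.97 in the imazalil-set arrays. CCN2 (86.3) and TGFBR2 (84.5) were also high, and IGFBP3, THBS1 and IL6 were above the limit in no array, at 34.5, 28.3 and 10.4. A fusion knockdown or a cell without the fusion was not measured, so these percentiles do not show activation or repression.

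**Figure D3:**
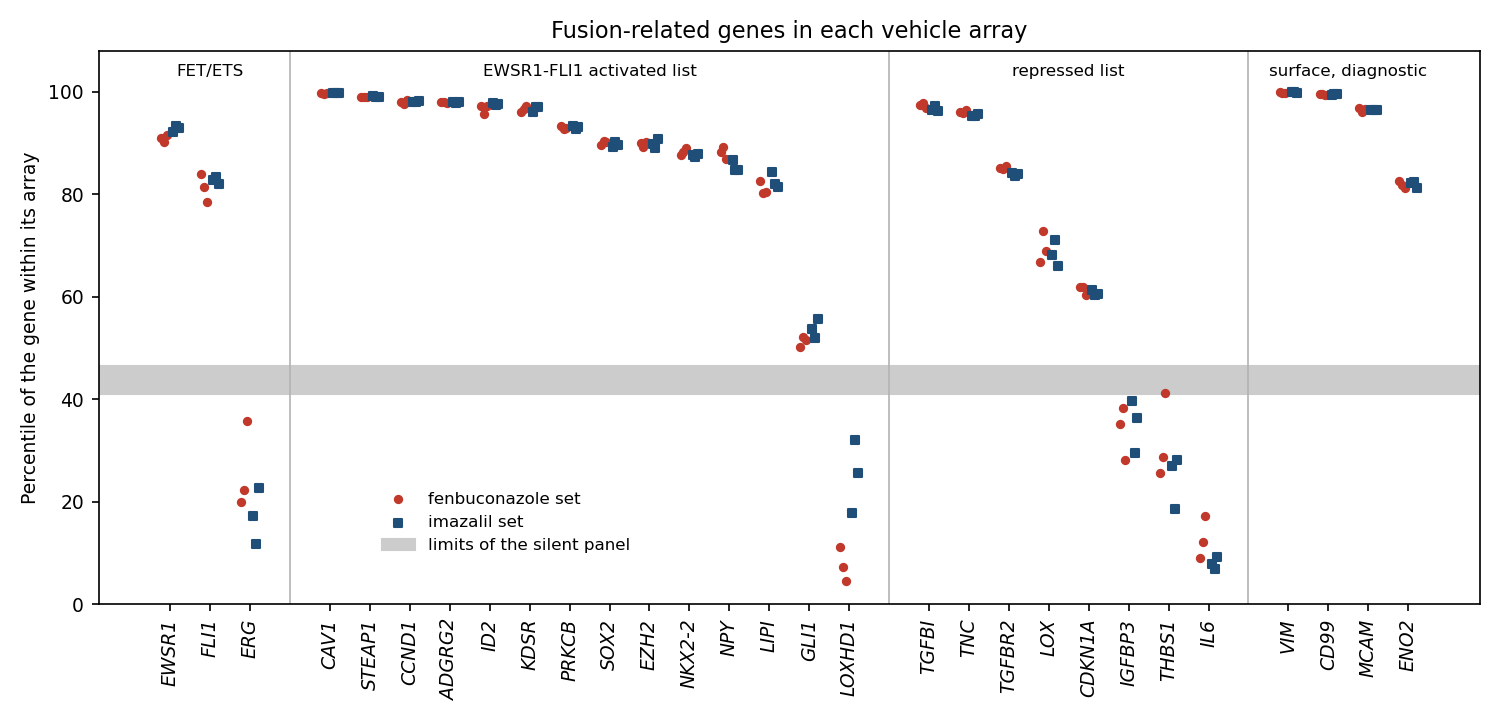
Percentile within the array for fusion-related genes in each of the 3 fenbuconazole-set (circles) and the 3 imazalil-set (squares) vehicle arrays. The grey band spans the limits of the silent panel. EWSR1, FLI1 and the members of the activated list shown sit above it except LOXHD1, whereas ERG, IGFBP3, THBS1 and IL6 lie below it.

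The promoter table gave 37 promoters for 24 of the 29 activated genes. GGAA, or TTCC on the other strand, was present in 89.2% of them and in 95.5% of all promoters, since so short a sequence occurs in nearly every window of 300 bases. At least 3 GGAA in a row was found in 0 of the 37 promoters and in 0.0855% of all. The repeats bound by the fusion are known to lie mostly far from promoters, outside these windows. An upstream start of CAV1 is given with GGAA and TTCC in capitals, and the 1 of the 2 NKX2-2 starts that has TATAAA is given with that sequence in capitals, as the start regions of 2 fusion-activated genes described above.
CAV1, chr7:116524949-116525028, plus strand: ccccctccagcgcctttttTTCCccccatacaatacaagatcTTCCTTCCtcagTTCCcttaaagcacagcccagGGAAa
NKX2-2, chr20:21512941-21513020, minus strand: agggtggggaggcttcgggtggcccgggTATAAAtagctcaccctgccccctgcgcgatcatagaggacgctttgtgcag

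The surface and diagnostic markers included some of the highest and some of the lowest signals. CD99, the membrane glycoprotein stained in the diagnosis of Ewing sarcoma, stood at percentile 99.5, 99.6 and 99.4 in the fenbuconazole-set arrays, and 99.5, 99.5 and 99.5 in the imazalil-set arrays, and it ranked from 79 to 110. VIM, the intermediate filament of mesenchymal cells, ranked from 25 to 37. Next came the adhesion molecule MCAM (96.5), the neuronal enolase ENO2 (81.9), the receptor EPHA2 (79.3) and the stem cell factor receptor KIT (74.1). IGF1R, the receptor for insulin-like growth factors, stood at 61.2. Above the limit in no array were the synaptic vesicle protein SYP (36.4), the chemokine receptor CXCR4 (28.1) and the ganglioside synthase ST8SIA1 (7.32).

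Of the lineage lists, the mesenchymal list had a larger share of members above the limit than the 51.5% of all genes, the neural crest and neuronal list had a share close to it, and the lists of other tissues had smaller shares. The mesenchymal list had 14 of 17 genes (82.4%) above the limit, led by VIM, fibronectin FN1 (99.5), the collagen chain COL1A2 (92.2) and the surface protein THY1 (87.8). PDGFRA (34.8) was above it in no array. The median of the mesenchymal list was 76.5, and it was 58.4 without probe sets ending in s_at or x_at. The neural crest and neuronal list had 8 of 15 (53.3%) above. These were TUBB3 (98.8), NEFL (91.2), GAP43 (85.7), NEFM (84.3), NEFH (79.5), TFAP2A (79.4), NES (69.2) and CHGA (51.8), of which the first 5 are cytoskeletal or growth cone proteins of neurons. The other 7 were above the limit in no array: ELAVL4 (33.9), SOX10 (28.9), TFAP2B (25.98), TH (24.2), DBH (24.01), STMN2 (13.1) and S100B (10.7). Those include SOX10, the factor that marks neural crest and glia, and TH and DBH, enzymes of catecholamine synthesis. TUBB3 was represented by a probe set ending in x_at, so it is not separated from other tubulins with certainty. The median of the neural crest and neuronal list was 51.8, beside 49.8 over all genes. It was 33.5 when each gene was given the median of its probe sets.

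Markers of differentiated tissues were mostly at panel level, whereas 51.5% of all genes were above the limit. In the skeletal muscle list 2 of 12 genes were above the limit, PAX7 and PAX3, factors of muscle progenitors, whereas MYOD1 (26.2), MYOG (16.1) and CKM (18.2), which mark committed and differentiated muscle, were above it in no array. PAX7 stood at 88.3, 87.5 and 86.6 in the fenbuconazole-set arrays, and 86.9, 87.4 and 88.1 in the imazalil-set arrays. In the epithelial list the keratins KRT18 (96.5) and KRT8 (60.3) were above, and the other 10 genes were above in no array, among them EPCAM (32.6) and the cadherin CDH1 (13.6).

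The remaining tissue lists had 1 to 3 genes above the limit, or none, whereas 51.5% of all genes were above it. They were 2 of 11 for blood (LCP1, an actin bundler, and CD79A), 1 of 8 for endothelium (EMCN), 1 of 10 for liver (AHSG), 0 of 5 for melanocytes and 3 of 15 for fat, cartilage and bone (SOX9, RUNX2 and BGLAP). Defining members of these lists were above the limit in no array, with PTPRC (12.02), CDH5 (5.96), ALB (21.9), MLANA (17.9), ADIPOQ (9.78) and SP7 (13.02) for leukocytes, endothelium, liver, melanocytes, fat and osteoblasts. The cancer-testis list, whose genes are silent in most somatic tissue, had 1 of 14 (7.14%) above, SSX1 (68.5), and MAGEA4 was at 5.13. Pluripotency and germ line genes had 2 of 9 (22.2%) above, LIN28B (64.4) and SALL4 (59.5), also under the 51.5% of all genes.

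Developmental transcription factors showed a marked range within families. Of the HOX genes, which pattern the body axis, 21 of 29 measured members (72.4%) were above the limit, beside 51.5% of all genes. The highest were 3 members of the HOXD cluster and HOXB2, at HOXD10 (92.1), HOXD8 (89.8), HOXD13 (87.9) and HOXB2 (86.99). HOXD13 stood at 89.3, 88.4 and 86.8 in the fenbuconazole-set arrays, and 87.9, 87.5 and 87.4 in the imazalil-set arrays. In the same cluster HOXD12 (13.3) and HOXD1 (25.5) were above the limit in no array, as were HOXB1 (15.1) and HOXA2 (11.2).

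The SOX family had 9 of 19 genes (47.4%) above the limit, slightly under the 51.5% of all genes, led by SOX4 (94.2), SOX1 (91.5), SOX2 (89.9) and SOX11 (83.1), which act in neural and other progenitors. SOX2 stood at 89.6, 90.4 and 90.2 in the fenbuconazole-set arrays, and 89.2, 90.1 and 89.7 in the imazalil-set arrays, but its 4 probe sets ranged from 40.4 to 94.5 among all probe sets. Of the PAX genes 6 of 9 (66.7%) were above, and PAX6 (81.8) and PAX5 (69.9) joined PAX7 and PAX3. Nuclear receptors had 15 of 39 (38.5%) above the limit, fewer than the share over all genes, with NR2F6 (81.2), NR3C1 (81.1), NR2C2 (78.5) and RXRA (71.2) highest. NR3C1 is the glucocorticoid receptor. The sex steroid receptors ESR1 and PGR had 48.5 and 10.6, and only the first was above the limit.

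Of the receptor tyrosine kinases 20 of 28 (71.4%) were above the limit, beside 51.5% of all genes. DDR2, a collagen receptor, was the highest at 94.9, followed by EPHA2 (79.3), IGF2R (77.6) and FGFR1 (76.6). IGF2R, listed with them, is a mannose 6-phosphate receptor and has no kinase. PDGFRA, NTRK2 and KDR were above the limit in no array, and the receptors EGFR (41.2), MET (46.7) and AXL (41.1) only in some. In antigen presentation the class I genes B2M, HLA-C, HLA-B and HLA-E stood at 99.8, 94.6, 88.9 and 88.4, whereas the class II genes HLA-DRA (28.3), HLA-DPA1 (19.6) and CD74 (23.6) were above the limit in no array, as was NLRC5 (33.5).

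CDKN2A, which encodes the cell cycle inhibitors p16 and ARF, stood at percentile 24.0, 25.9 and 12.4 in the fenbuconazole-set arrays, and 44.4, 42.3 and 41.6 in the imazalil-set arrays. It was above the limit in 2 arrays, both of the imazalil set, and its 2 other probe sets stood lower. CDKN2B, the neighbouring inhibitor gene, stood at 36.4, 17.8 and 23.6 in the fenbuconazole-set arrays, and 24.01, 32.2 and 41.6 in the imazalil-set arrays. MTAP, an enzyme of methionine salvage on the other side of CDKN2A, stood at 63.6, 67.4 and 65.4 in the fenbuconazole-set arrays, and 62.4, 61.7 and 59.99 in the imazalil-set arrays and was above the limit in 6 of 6. The 6 probe sets of MTAP ranged from 25.85 to 77.1 among all probe sets, and the highest of them stood for the gene. The nearest measured genes farther out that were above the limit were KLHL9 (70.9) on the MTAP side and CAAP1 (72.6) and PLAA (72.6) on the CDKN2B side. Between them lie interferon genes and others at panel level. No DNA was measured, and the state of the locus was not tested. Of the other cell cycle inhibitors, CDKN1B had 81.8 and CDKN1A had 61.01, and RB1, the retinoblastoma gene, had 85.03.

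**Figure D4:**
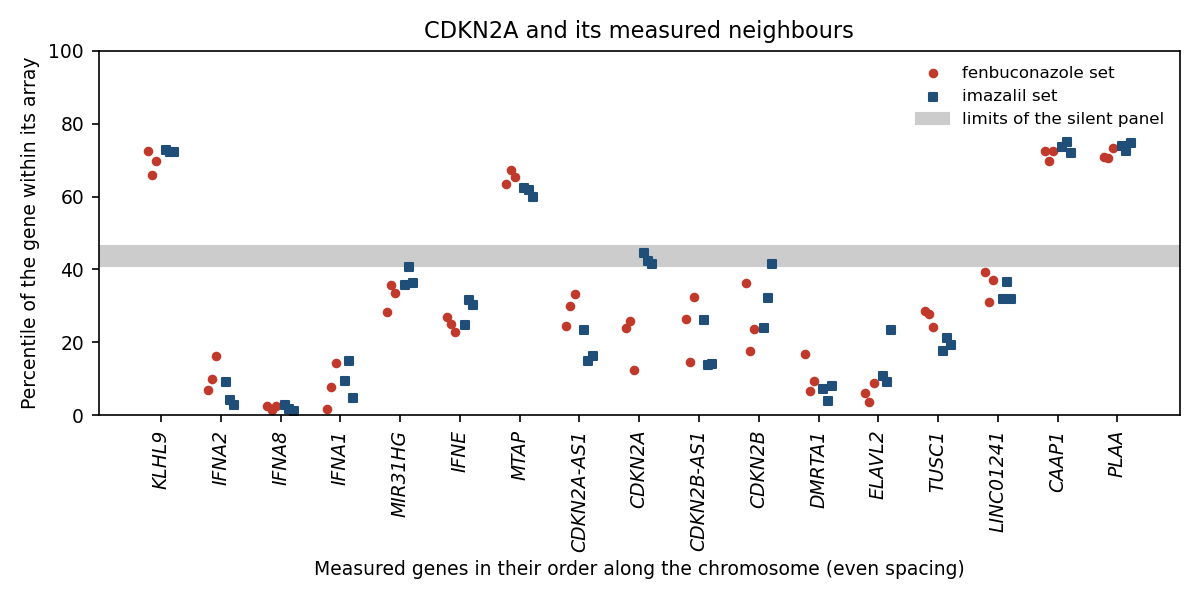
Percentile within the array for CDKN2A and its measured neighbours in their order along the chromosome, with even spacing, in the 3 fenbuconazole-set (circles) and the 3 imazalil-set (squares) vehicle arrays. The grey band spans the limits of the silent panel, and of the genes between KLHL9 and CAAP1 only MTAP lies above it in every array.

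Genes through which the test chemicals are known to act or to be handled were also read in the vehicle state. AHR, the receptor that induces xenobiotic metabolism, stood at percentile 78.9, 76.1 and 81.3 in the fenbuconazole-set arrays, and 82.8, 79.1 and 82.5 in the imazalil-set arrays. CYP1A1, its classical target, stood at 31.2, 36.0 and 42.5 in the fenbuconazole-set arrays, and 18.8, 38.9 and 31.1 in the imazalil-set arrays, below the limit in 6 of 6. ABCB1, a drug efflux pump, stood at 5.35, 2.85 and 3.44 in the fenbuconazole-set arrays, and 1.39, 2.12 and 2.73 in the imazalil-set arrays. The glutathione transferase GSTP1 (97.9), the quinone reductase NQO1 (81.5) and the exporter ABCC1 (71.9) were above the limit, and the list as a whole had 9 of 18 genes above, close to the 51.5% over all genes. CYP2B6, CYP1A1, CYP2E1, ABCG2 and ABCB1 were above the limit in no array.

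CYP51A1, the sterol 14-demethylase that is the human counterpart of the fungal target of azoles, stood at percentile 91.9, 90.9 and 89.1 in the fenbuconazole-set arrays, and 92.3, 92.1 and 89.7 in the imazalil-set arrays. In the sterol synthesis list 19 of 20 genes were above the limit, with a median of 81.5, beside 51.5% and 49.8 over all genes. Highest were the demethylation enzyme MSMO1 (96.9), the isomerase IDI1 (95.9), the squalene epoxidase SQLE (95.5) and the desaturase SC5D (94.4). MVD (51.4) was above in some arrays only. In the p53 pathway list 12 of 14 genes (85.7%) were above, beside 51.5% of all genes, led by the regulators MDM4 (78.6) and MDM2 (76.6), the death receptor FAS (76.1) and the repair factor XPC (73.6). MMP1, a collagenase named after its values were seen, ranked from 58 to 82, within the 100 highest genes in all 6 arrays.

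Agreement between the sets was close for genes with signal and loose for genes without. Across the 19774 genes, which share probes and therefore probe affinity on every array, the median Spearman correlation of the 9 array pairs between the fenbuconazole and imazalil sets was 0.964, with a range of 0.959 to 0.971. Within sets it was 0.971 in the fenbuconazole set and 0.980 in the imazalil set (3 pairs each). Over the 10189 genes above the limit the value between sets was 0.989, and over the 7621 not above it 0.560. Of the 100 genes with the highest mean percentile in each set, 94 were shared, and of the 1000 highest, 938.

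The percentile was higher in all 3 fenbuconazole-set arrays than in any imazalil-set array for 2985 genes (15.1%), and lower in all 3 for 2974 genes (15.0%). The sizes were small. The median absolute difference of the set means was 2.11 percentile points over all genes and 1.08 points over genes above the limit, and 0 of 10189 genes above the limit differed by more than 10 points. Over genes not above the limit 1656, or 21.7%, did. Of the EWSR1-FLI1 activated list 4 genes were higher without overlap in the fenbuconazole set and 6 in the imazalil set.

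The widest differences without overlap were all of genes above the limit in none or in some of the arrays. TAAR9, a trace amine receptor, stood at percentile 46.7, 47.6 and 43.1 in the fenbuconazole-set arrays, and 18.5, 3.79 and 12.4 in the imazalil-set arrays. On the same side were COBL, FABP2, LINC02223, SPATA18, AGTR1, FRMPD2B, NTF4, TMEM132D and TRBV7-8, with differences of the set means from 25.6 to 32.97 points. AFAP1, an actin-binding adaptor, stood at 4.43, 5.53 and 13.3 in the fenbuconazole-set arrays, and 47.04, 48.3 and 47.7 in the imazalil-set arrays. On that other side were MS4A14, SOX2-OT, CYP11B2, LINC01020, ZFP57, ANKRD36, ATP6V1C2, OSBPL7 and TIFAB, with differences from -38.2 to -27.7 points. CDKN2A had a difference of -22.0 points. The set, its normalization and the arrays cannot be told apart in these differences.

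**Figure D5:**
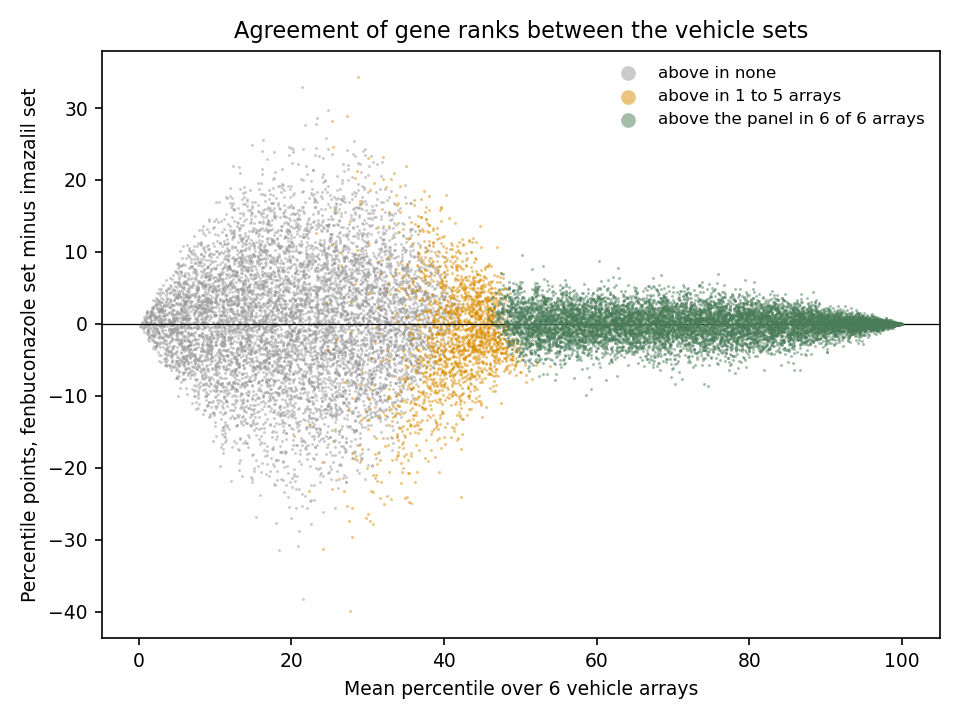
Difference of the mean percentile, fenbuconazole set minus imazalil set, against the mean percentile over 6 vehicle arrays for each of 19774 genes. Genes above the silent panel in 6 of 6 arrays stay within 10 points of 0, and the widest differences, up to 34.2 and down to -39.9 points, belong to genes above the limit in 0 to 3 of the 6 arrays.

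To place the vehicle arrays within their sets, the 3 vehicle columns were compared with the 27 treated columns of the same set at each of 54613 probe sets, with limma's moderated test and Benjamini-Hochberg adjustment. In the fenbuconazole set 7 probe sets (0.0128%) differed, 6 higher and 1 lower in vehicle arrays, in the imazalil set 2 (0.00366%), 1 in each direction, and in the 2,4-D set, which shares its vehicle arrays with the imazalil set, 0 (0%). At an unadjusted p under 0.05 the counts were 4770, 2959 and 2552 of the 54613 probe sets. A share of 0.05 would fall under that threshold where no probe set differs. The imazalil and 2,4-D counts lay close to that share, and the fenbuconazole count lay above it. The counts that passed moved with single arrays. In the fenbuconazole set 2 passed without vehicle replicate 2 and 81 passed without vehicle replicate 3. In the imazalil set 0 passed without vehicle replicate 1 and 8 passed without vehicle replicate 3.

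In the fenbuconazole set ABHD1, a hydrolase-fold protein, had log2 values of 3.06, 2.89 and 2.84 in the 3 vehicle arrays, against a lowest of 2.15, a median of 2.41 and a highest of 2.69 in the 27 treated arrays. The groups did not overlap, and vehicle minus treated was 0.52 ± 0.08 (SE, limma adjusted p = 0.00367). The intestinal fatty acid binding protein gene FABP2, the nuclear receptor gene NR1I3, TAAR9 and LINC02028, and a probe set with no symbol listed, were also higher in vehicle arrays, by 0.47 to 0.61 on the log2 scale, with limma adjusted p from 0.0183 to 0.0473. ABHD1 and these 4 genes had mean vehicle log2 values near those of the silent panel, from 2.85 to 3.25, where the limit was 3.16 to 3.25. FABP2 and TAAR9 were also among the widest differences between the vehicle sets, which rest on the same 3 arrays. ATP2C1, a Golgi calcium pump, was lower in vehicle arrays, with log2 values of 7.08, 6.76 and 7.23 in the 3 vehicle arrays, against a lowest of 7.23, a median of 7.47 and a highest of 7.66 in the 27 treated arrays. The difference was -0.44 ± 0.08 (SE, limma adjusted p = 0.0339), and the highest vehicle value lay just under the lowest treated value. With probe sets at or below the median level left out, 0 of 27306 passed by limma (2314 at an unadjusted p under 0.05). ATP2C1 was bright enough to stay in that test and did not pass. Dim probe sets were removed before it, so their absence there is not a failed repeat. ATP2C1 also did not pass with equal array medians or without vehicle replicate 2, where 0 probe sets were lower. The next 4 genes that were lower, VRK2, PLAT, FAM114A1 and CNTRL, did not pass, with limma adjusted p from 0.0597 to 0.0725. With the replicate number as a block these 4 passed, at limma adjusted p from 0.0131 to 0.0414. The set then had 8 probe sets higher and 8 lower in vehicle arrays. The number may mark the batch of cells, although the methods do not say that equal numbers in different groups share a batch.

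In the imazalil set a probe set of GINS2, a subunit of the replicative helicase, had log2 values of 3.93, 4.03 and 4.27 in the 3 vehicle arrays, against a lowest of 4.40, a median of 4.60 and a highest of 5.02 in the 27 treated arrays. Vehicle minus treated was -0.54 ± 0.09 (SE, limma adjusted p = 0.0367). In the fenbuconazole set the same probe set had 0.24, in the other direction. The contrast between these 2 sets did not pass (limma adjusted p = 0.18). ADORA2A-AS1, an antisense RNA, was higher in vehicle arrays, with log2 values of 2.88, 3.06 and 3.14 in the 3 vehicle arrays. The 27 treated arrays had a lowest of 2.48, a median of 2.60 and a highest of 2.94. The difference was 0.40 ± 0.07 (SE, limma adjusted p = 0.0367), and in the fenbuconazole set it was 0.09. Neither the GINS2 probe set nor ADORA2A-AS1 passed without vehicle replicate 1. GRIA1, LOC93463, CRYZL2P and LOC105376944 on the higher side and MEIS3P1, THUMPD3-AS1, DIP2C and CC2D2A on the lower did not pass, at adjusted p of 0.0503 or more by limma. In the 2,4-D set the smallest limma adjusted p was 0.173, for MEIS3P1. No listed fusion target or lineage marker was among the probe sets that passed, except that NR1I3 belongs to the nuclear receptor and xenobiotic lists. So few probe sets passed that this absence says little about the lists.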

How the data were processed

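A673 total RNA was measured on Affymetrix HT HG-U133+ PM arrays. The authors deposited log2 values per probe set, made with RMA in Partek separately for the 30 columns of each chemical. Background correction, quantile normalization and summarization over probes were thus done before deposit, and the sources used here give no versions. Array depth has no counterpart of read counts, and the number of arrays limits the precision. All 54715 probe sets were read, from 90 columns matched to samples by name. After 102 control probe sets were left out, 40914 of 54613 had 1 gene symbol, 864 several (not used for genes) and 12835 none listed, in the platform annotation.

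Vehicle columns were grouped by their labels. Genes were ranked within each array with Python 3.11.15 and pandas 2.3.3, each represented by its probe set of highest mean percentile over the 6 distinct vehicle arrays. The limit was the 95th percentile of 121 olfactory and taste receptor genes (101 and 20). Vehicle and treated columns were compared within a set with limma 3.58.1 in R 4.3.3 (lmFit, eBayes), with Benjamini-Hochberg adjustment at 0.05 and without a replicate block, and the script was tested on simulated data. The 32 gene lists and the members described were chosen with earlier results of these data known. Named genes were the 30 highest, members of each list above the 95th percentile or among its 4 highest, members above the limit in no array where these were few, the 10 widest differences per direction between sets, up to 5 genes per direction with the smallest p in each set, and genes the rule lists by name, of which 2 are not analysed here. Members of long lists above the 95th percentile were given as counts, and in some lists only part of the members above the limit in no array were named. Promoter sequences came from the RefSeq table for GRCh38.p14. The closing section gives the effect of other probe set choices, panels, limits and left-out arrays.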

Additional observations from a re-analysis of the deposited data

How the results depend on the processing

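The rank correlation between sets, 0.964 as reported, was 0.955 with the median over all probe sets of a gene, 0.947 without probe sets ending in s_at or x_at, 0.989 over genes above the panel only and 0.991 as a Pearson correlation of log2 values. The counts of genes above and not above the panel and the number of top 100 genes shared stayed within 1.5 times under every alternative run, and 19 of 32 lists had a median over 50. Without s_at and x_at probe sets 16988 genes remained, and the median of the ribosomal protein list was 73.0, where it was 99.7 with them. Those of the translation factor, glycolysis, mesenchymal and antigen presentation lists were 75.3, 80.2, 58.4 and 47.3, where they were 99.2, 95.9, 76.5 and 70.1. With the median over probe sets the neural list had a median of 33.5, where it was 51.8. The counts of probe sets that differed between vehicle and treated arrays were small and moved with the settings. In the fenbuconazole set, where 7 passed, 16 passed with the replicate number as a block (8 higher and 8 lower), 0 without dim probe sets, 3 with equal array medians, 12 with trend and robust estimation in eBayes, and 2 to 81 when a vehicle array was left out, with the highest count without replicate 3 and the lowest without replicate 2. In the imazalil set, where 2 passed, the replicate block gave 2, leaving out the 10 µM arrays gave 6, leaving out dim probe sets gave 1, and leaving out a vehicle array gave 0 (replicate 1) to 8 (replicate 3). In the 2,4-D set 0 passed under each of these settings. Same-numbered arrays of different groups correlated in their deviations at a mean of 0.0420, 0.0689 and 0.0781 in the fenbuconazole, imazalil and 2,4-D sets. The methods give each replicate its own batch of cells, but do not say that equal numbers in different groups share a batch. The fit without the block was therefore kept. The cause of these shifts was not tested. Each gene has 3 vehicle arrays per set, and the order of genes not above the panel was shared less closely, with a rank correlation of 0.560 between sets.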
